A study of Mus musculus with 140 samples.

Results

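Silencers are DNA elements that lower transcription. The intervals described here are the listed silencers in and around 9 mouse genes of the p53 family and the cell cycle brakes: Trp53, Trp63, Trp73, Mdm2, Mdm4, Cdkn1a, Cdkn2a, Rb1 and Bcl2. An interval was taken as a member where at least 1 bp of it lay in one of these genes or in the 10 kb to either side, called the gene's territory below. This gave 39 of the 89596 intervals listed for mouse embryonic fibroblasts (MEFs) and 41 of the 115165 listed for mouse embryonic stem cells (mESCs). The 9 genes are named ones among 21938 protein-coding genes, and the rule uses their position and no fold.

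The study cloned sheared mouse genomic DNA into a silencer-screening reporter plasmid (Ss-STARR-seq), transfected the plasmid pool into cells and sequenced the reporter RNA. The labels give 64 libraries of MEF reporter RNA in 4 numbered output sets, 56 libraries of mESC reporter RNA in 3 output sets, and 20 libraries of the input plasmid pool. MEFs were grown in serum medium and mESCs in a 2i/LIF medium, which holds stem cells in a naive state. The input titles carry the tag hPGK. Fragments were tested on a plasmid, away from their own locus, so an interval's place near a gene does not show that it acts on that gene. The authors deposited 1 list of intervals for each cell type, each interval with a fold, a linear ratio whose numerator and denominator are not stated in the sources used here. A high fold is therefore not read as strong silencing. The labels name the same list for every library of a cell type and do not say which libraries are separate cultures, so no difference between the lists had a replicate check, and the p-values below describe these lists alone. The lists hold no read counts, and the depth behind any interval is unknown. Nothing in the files measures expression of the genes.

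p53, encoded by Trp53, is a transcription factor that DNA damage and oncogenic stress stabilise, and that halts the cell cycle or triggers apoptosis. Trp63 and Trp73 encode its relatives, used mainly in epithelial and neural development, while MDM2 and MDM4 hold p53 in check. Among its targets is Cdkn1a, whose product p21 inhibits cyclin-dependent kinases. The Cdkn2a locus makes p16INK4A, which inhibits the kinases that phosphorylate RB, and ARF, which inhibits MDM2. RB, encoded by Rb1, restrains E2F factors, and BCL2 blocks the mitochondrial route to apoptosis. The p53 and Cdkn2a pathways are known as barriers to reprogramming fibroblasts into pluripotent cells.

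Stretches listed as silencers in both cell types are printed here because they are the positions that the MEF and mESC lists share within each gene. For 5 of the genes, the overlapping MEF and mESC pair with the highest MEF fold is shown as its MEF interval, passing over pairs that touch an untranslated region, as the one of Cdkn1a does. Trp73 and Mdm2 had no pair. Capitals mark the bases that the mESC interval also covers. Letters are the plus strand of GRCm38.p6 (mm10), and the first base is 1 past the listed start.
Trp53, chr11:69593952-69594051: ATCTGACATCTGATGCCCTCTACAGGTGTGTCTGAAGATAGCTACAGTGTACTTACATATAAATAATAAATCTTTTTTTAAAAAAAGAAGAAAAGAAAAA
Trp63, chr16:25755614-25755863: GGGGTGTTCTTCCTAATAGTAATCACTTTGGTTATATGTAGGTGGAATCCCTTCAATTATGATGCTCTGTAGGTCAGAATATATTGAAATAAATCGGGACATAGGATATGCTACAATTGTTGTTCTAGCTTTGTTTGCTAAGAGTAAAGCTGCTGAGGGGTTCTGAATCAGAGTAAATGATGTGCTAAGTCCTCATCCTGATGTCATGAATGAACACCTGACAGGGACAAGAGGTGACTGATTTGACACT
Cdkn2a, chr4:89291352-89291501: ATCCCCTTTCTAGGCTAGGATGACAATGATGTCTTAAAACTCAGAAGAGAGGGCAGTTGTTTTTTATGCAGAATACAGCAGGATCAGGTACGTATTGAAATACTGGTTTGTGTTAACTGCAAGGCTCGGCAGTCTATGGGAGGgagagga
Rb1, chr14:73256402-73256551: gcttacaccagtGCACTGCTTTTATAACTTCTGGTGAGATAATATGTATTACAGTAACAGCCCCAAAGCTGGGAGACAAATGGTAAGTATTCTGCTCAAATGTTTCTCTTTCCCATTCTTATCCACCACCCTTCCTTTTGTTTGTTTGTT
Bcl2, chr1:106589252-106589451: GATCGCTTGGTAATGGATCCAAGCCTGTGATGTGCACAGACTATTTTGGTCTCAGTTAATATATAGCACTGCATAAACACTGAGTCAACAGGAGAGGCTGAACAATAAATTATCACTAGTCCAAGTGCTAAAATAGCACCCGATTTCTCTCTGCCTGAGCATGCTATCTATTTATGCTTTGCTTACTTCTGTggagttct
The member interval with the highest fold of each list follows. Each was found in 1 list only and so has no capitals.
Trp63 intron 1, MEF, chr16:25700400-25700499: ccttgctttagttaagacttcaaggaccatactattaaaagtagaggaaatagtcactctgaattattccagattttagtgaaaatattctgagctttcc
Trp63 downstream, mESC, chr16:25894304-25894453: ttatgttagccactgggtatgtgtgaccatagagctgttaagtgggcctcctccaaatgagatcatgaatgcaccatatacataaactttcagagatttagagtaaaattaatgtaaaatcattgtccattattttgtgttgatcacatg

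The intervals were spread unevenly over the genes, largely with gene size. Trp63, Rb1, Bcl2 and Mdm4, whose bodies run from 71.1 to 208 kb, held most of them. In MEFs there were 10 intervals at Rb1, 9 at Trp63, 6 each at Mdm4 and Bcl2, 2 each at Mdm2, Cdkn1a and Cdkn2a, and 1 each at Trp53 and Trp73. In mESCs there were 11 at Trp63, 10 at Bcl2, 8 at Rb1, 7 at Mdm4, 2 at Trp53, 1 each at Trp73, Cdkn1a and Cdkn2a, and 0 at Mdm2. The order of Rb1, Trp63 and Bcl2 thus differed between the lists, and Mdm2 alone was without an interval in one of them. Over the 9 territories the MEF list had 42.2 intervals per Mb (95% exact Poisson interval 30.0 to 57.6, counting error only) against 38.2 over all 20807 autosomal protein-coding genes. The mESC list had 44.3 per Mb (31.8 to 60.1) against 49.9. Both intervals hold the value of all genes.

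**Figure D1:**
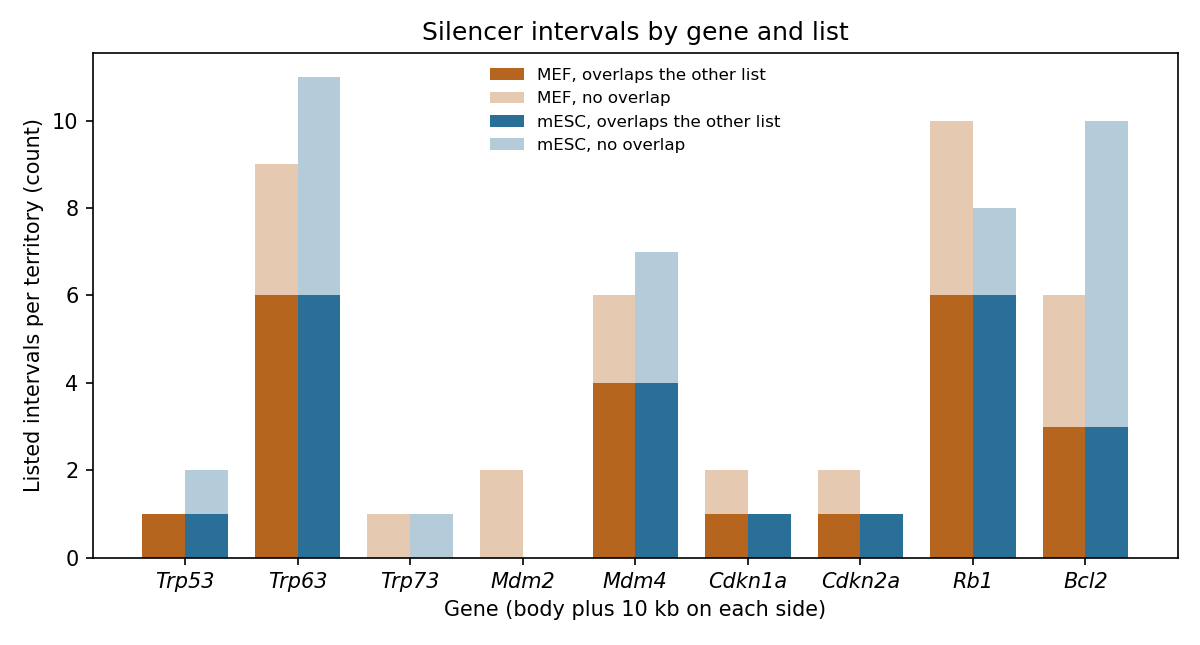
Number of listed silencer intervals (vertical axis, count) in the territory of each gene (horizontal axis) in the MEF list (brown) and the mESC list (blue); the dark base of each bar counts intervals that overlap the other list and the pale top those that do not. Trp63 reaches 9 and 11 and Rb1 10 and 8, while Mdm2 has 2 in MEFs and 0 in mESCs.

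The mESC list supplied 51.2% of the 80 member intervals (95% exact binomial interval 39.8 to 62.6), against 56.2% of both lists together. The 22 overlapping pairs count once on each side of this share. Members are therefore not independent, although the binomial interval takes them to be. By gene, mESC intervals made up 62.5% of 16 at Bcl2, 55% of 20 at Trp63, 53.8% of 13 at Mdm4 and 44.4% of 18 at Rb1. These 4 genes had the 10 or more intervals needed for a test. None of the 4 was called by a two-sided exact binomial test adjusted over all 3549 genes tested, where the share called was 0% in either direction (unadjusted p = 0.802, 1, 1 and 0.348, adjusted p = 1 for each). Without adjustment 30 of the 3549 genes, or 0.845%, lay below p = 0.05. The per-gene intervals are wide, from 21.5 to 69.2% at Rb1 and from 35.4 to 84.8% at Bcl2, so a moderate lean to one cell type was not detectable in counts of this size. The per-gene test also treats the 2 sides of a pair as independent. With only the intervals that do not overlap the other list, the mESC share was 52.8% of 36 members, against 60.7% of both lists. At Bcl2 it was then 70% of 10, which was not called.

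Counts were next set against territory length with a negative binomial model over all genes. MEF counts exceeded the count that length gives at 6 of 9 members (66.7%, against 42.7% of all genes), and mESC counts at 3 of 9 (33.3%, against 40.3%). The members' median ratio of observed to expected count was 1.25 in MEFs and 0.95 in mESCs, beside 0.86 and 0.83 over all genes. None of the 9 members was called in either list at an adjusted p of 0.05, and neither was any gene (0% of 20807). At an unadjusted p under 0.05 the model marked 363 genes (1.74%) in MEFs and 416 genes (2%) in mESCs, none of them a member. The smallest unadjusted member p was 0.342 in MEFs, at Rb1, and 0.207 in mESCs, at Trp73.

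**Figure D2:**
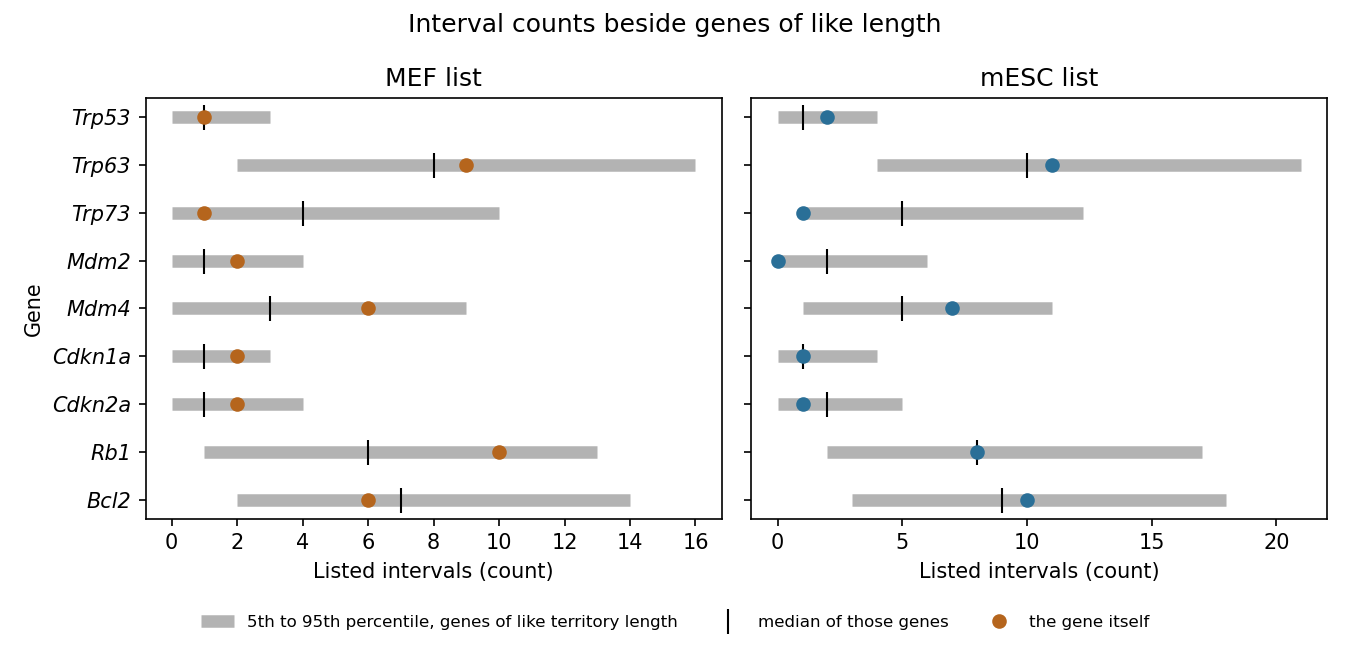
Interval counts of each gene (points; horizontal axis, count) beside genes whose territory length is within 10% of its own (grey bar, 5th to 95th percentile; black tick, median), for the MEF list on the left and the mESC list on the right. Every point lies on or inside its bar; Trp73 and Mdm2 sit at the lower edge in the mESC list, at 1 and 0.

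Of the p53 family itself, Trp53 had no listed interval inside the gene body. Its body, chr11:69580359-69591873 on the plus strand, is 11.5 kb long with 11 exons in the reference transcript. The 1 MEF interval, chr11:69593951-69594051, lay 2.13 kb past the end with a fold of 2.24, and an mESC interval started at the same base and ran 50 bp further with a fold of 2.14. The MEF interval was wholly soft-masked repeat. A second mESC interval, chr11:69596051-69596101, lay 4.20 kb past the end with a fold of 3.33 and was also wholly repeat. Neither the first intron of Trp53, which is 6.38 kb and holds 65.4% of its intron bases, nor any exon was listed. Of 3032 genes with a territory of like length, 70.8% had 1 MEF interval or none and 78.9% had 2 mESC intervals or fewer.

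Trp63 is the p63 gene required for stratified epithelia. With the longest territory of the 9, 228 kb, it held more intervals than any other member when both lists are counted. Its body is chr16:25683763-25892102 on the plus strand, 208 kb with 14 exons. All 9 MEF intervals and 10 of the 11 mESC intervals lay in the body. Intron 1 (78.9 kb) had 4 MEF and 3 mESC intervals, intron 3 (56.1 kb) 2 and 3, and intron 4 (41.6 kb) 1 and 2. Intron 10 had 1 of each, intron 8 had 1 mESC interval, and 1 MEF interval fell in exon 14, at the 3′ untranslated end. Introns 1, 3 and 4 are the longest, with 38.9%, 27.6% and 20.5% of the gene's intron bases. The counts of Trp63 were 1.04 times the expected in MEFs and 0.95 times in mESCs. Of 274 genes of like length, 46.4% had as many MEF intervals or more and 48.2% as many mESC intervals or more.

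Trp63 has a second start, 118 kb into the gene, from which the N-terminally truncated ΔN forms of p63 are known to be made. Between the first and second starts lay 6 intervals of each list, and after the second start 3 MEF and 4 mESC intervals over 90.2 kb. No interval lay at the second start. The nearest was an overlapping pair centred 8.45 kb (MEF) and 8.56 kb (mESC) before it, chr16:25793287-25793637 with a fold of 2.30 and chr16:25793151-25793551 with a fold of 2.59.

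The highest fold of any member was in Trp63 intron 1. The MEF interval chr16:25700399-25700499, printed above, had a fold of 46.3, at rank 5 of the 89596 in its list, with no repeat-masked base. No mESC interval lay within 6.36 kb of it. Another MEF interval, chr16:25700249-25700349, ended 50 bp before it and had a fold of 2.40. The next MEF fold in Trp63 was 3.36, at chr16:25755613-25755863, where the mESC interval had 2.12. The other 6 MEF folds in the gene ran from 2.06 to 2.46. In mESCs the highest fold was 5.42 at chr16:25894303-25894453, which is 2.28 kb past the gene end and is printed above, and the next was 4.19 at chr16:25877907-25878007 in intron 10. That intron 10 interval is paired with a MEF interval, chr16:25877711-25877908 with a fold of 2.14, through 1 shared base, so it was counted as shared only under the overlap of 1 bp. The other 9 mESC folds in Trp63 ran from 2.12 to 2.59.

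Trp73, the p73 gene, had the fewest intervals per Mb of the 9 in the MEF list, 9.62, and the fewest after Mdm2 in the mESC list, also 9.62. Its 84.0 kb body, chr4:154056253-154140208 on the minus strand, had no interval in either list, before or after its internal start. The MEF interval chr4:154051161-154051231 lay 5.06 kb past the gene end with a fold of 2.97. The mESC interval chr4:154145981-154146031 lay 5.80 kb before the gene start, inside the body of the neighbouring gene Wrap73, with a fold of 4.19. Both were wholly soft-masked. Among 776 genes of like length the medians were 4 MEF and 5 mESC intervals, and 14.6% had 1 MEF interval or none and 8.51% had 1 mESC interval or none. The count was 0.25 times the expected in MEFs (negative binomial model, unadjusted p = 0.344) and 0.19 times in mESCs (p = 0.207), with an adjusted p of 1 in both. The territory of Trp73 has the highest GC content of the 9, 51.3%, against 39.5% at Trp63. With GC content beside length in the model its ratios were 0.54 and 0.37.

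The genes of the regulators MDM2 and MDM4 differed in how many intervals they held, and their territories differ in length, 41.9 and 91.1 kb. Mdm2, chr10:117688875-117710758 on the minus strand, encodes the ubiquitin ligase that marks p53 for degradation. It had 2 MEF intervals and no mESC interval. The first, chr10:117691851-117692026, lay in intron 10 with a fold of 2.45 and was 92.6% repeat-masked. The second, chr10:117718001-117718051, lay 7.27 kb before the gene start with a fold of 2.12. Intron 1 of Mdm2, which in this gene is known to carry the p53-responsive promoter, had no interval. The MEF count was 1.25 times the expected (negative binomial model, unadjusted p = 0.894). A count of 0 in mESCs was also seen at 18.6% of 2216 genes of like length, and the model expected 2.11 (unadjusted p = 0.351, adjusted p = 1). With a 25 kb flank Mdm2 had 2 mESC intervals, 0.56 times the expected count.

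Mdm4, which encodes a p53 inhibitor without ligase activity of its own, had 6 MEF and 7 mESC intervals, all in its 71.1 kb body, chr1:132959484-133030561 on the minus strand. These were 1.73 and 1.52 times the expected counts (adjusted p = 1 for both). Of 890 genes of like length, 23.8% had as many MEF intervals or more and 29.1% as many mESC intervals or more. Mdm4 had 4 overlapping pairs, and in 3 of these the MEF and mESC coordinates were identical. One of these, chr1:133025751-133026101 with folds of 2.11 and 2.10, was centred 511 bp from an annotated Mdm4 start, in an exon of the gene model Gm29257.

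A further Mdm4 pair stood close to the start on its inner side. The MEF interval chr1:133024201-133024501 was centred 986 bp from the nearest Mdm4 start with a fold of 2.02, and the mESC interval began 50 bp earlier, centred at 1011 bp, with a fold of 2.53. Another pair, chr1:133021551-133021651 in intron 1, was wholly repeat and had folds of 2.24 and 2.17. An mESC interval 50 bp from it, chr1:133021701-133021751, had a fold of 3.00. The intervals of 1 list only were 2 in MEFs, both in intron 2 with folds of 2.00 and 3.34, and 3 in mESCs, with folds from 2.14 to 3.46.

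The CDK inhibitor genes are short and held few intervals, but each had 1 pair found in both cell types. At Cdkn1a, chr17:29090976-29100727 on the plus strand, the pair was chr17:29097751-29098001 in MEFs with a fold of 2.37 and chr17:29097803-29098003 in mESCs with a fold of 3.09. It was centred 23 and 4 bp from an annotated start 6.9 kb inside the gene and overlapped untranslated exon sequence there. A further MEF interval, chr17:29083026-29083326 with a fold of 2.44, lay 7.80 kb upstream and was 86.0% repeat. No interval covered the first start or the second, 2.79 kb further in, and the pair was 4.11 kb (MEF) and 4.13 kb (mESC) past the second. The MEF count of 2 was 1.77 times the expected and the mESC count of 1 was 0.67 times, each with an adjusted p of 1 in the negative binomial model.

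At Cdkn2a, chr4:89274471-89294653 on the minus strand, every interval lay in the intron between the ARF and the INK4A first exons. The gene's starts are 12.5 kb apart, ARF first. The shared pair was chr4:89291351-89291501 in MEFs with a fold of 2.32 and chr4:89291094-89291494 in mESCs with a fold of 2.54, centred 3.23 and 3.36 kb past the ARF start. A MEF interval without a counterpart, chr4:89292101-89292451 with a fold of 2.61, lay 2.38 kb past it. The nearest interval to the INK4A start was 9.23 kb before it in MEFs and 9.10 kb in mESCs. After the INK4A start, over the remaining 7.72 kb, neither list had an interval. Counts were 1.31 times the expected in MEFs and 0.49 times in mESCs (adjusted p = 1).

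Rb1, chr14:73183673-73325822 on the minus strand, had the most MEF intervals of the 9 genes, 10 against an expected 6.17 (ratio 1.62, adjusted p = 1), and 8 in mESCs against 8.18. Of 457 genes of like length, 18.4% had at least 10 MEF intervals. Intron 17, 45.7 kb long and 36.4% of the gene's intron bases, held 4 intervals of each list. Rb1 was the member with the most pairs beside Trp63, with 6 of its 10 MEF and 6 of its 8 mESC intervals overlapping.

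The Rb1 pair with the highest folds was in intron 17. Its MEF interval, chr14:73256401-73256551, had a fold of 5.99, the second highest MEF fold among all members, and its mESC interval, chr14:73256413-73256563, had 4.34, also second among mESC members. No other pair had a fold above 4 on both sides. Also in intron 17, pairs 0.15 kb (MEF) and 0.10 kb (mESC) apart at chr14:73230001-73230251 and chr14:73230401-73230651 had MEF folds of 2.06 and 2.41 and mESC folds of 2.29 and 2.51. The pair in intron 20, at chr14:73210251-73210551, had a MEF fold of 3.05 and an mESC fold of 2.04, and the pair in intron 2, at chr14:73311901-73312241, had 2.09 and 2.21.

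In Rb1 intron 11 a 50 bp MEF interval, chr14:73270501-73270551 with a fold of 2.58, sat inside the longest member interval, the 1033 bp mESC interval chr14:73270268-73271301 with a fold of 2.17. Of the 4 MEF intervals without a counterpart, chr14:73297461-73297611 in intron 3 had a fold of 4.32 and was wholly repeat, and chr14:73329201-73329601 lay 3.58 kb before the gene start with a fold of 2.13. The other MEF-only intervals had folds of 2.20 and 2.56, the latter also inside the body of Rcbtb2. The 2 mESC-only intervals had folds of 2.17 and 2.25. Intron 1 and the start of Rb1 had no interval.

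Bcl2, chr1:106538178-106714274 on the minus strand, had 6 MEF and 10 mESC intervals, an mESC share that, as given above, was not called. Its single intron of 169 kb held 5 MEF and 8 mESC intervals, the nearest to the gene start centred 42.1 kb from it. The counts were 0.80 and 1.01 times the expected. Of the 3 pairs, one lay in the untranslated 3′ exon, chr1:106539301-106539651 with a fold of 2.24 in MEFs, inside the 750 bp mESC interval chr1:106539251-106540001 with a fold of 2.06. The others were chr1:106589251-106589451, printed above, with folds of 2.46 and 2.26, and chr1:106635301-106635401 with 2.21 in both. A MEF-only interval 0.1 kb from the second pair, chr1:106589551-106589651, had the highest MEF fold of the gene, 3.06. All 10 mESC folds lay between 2.00 and 2.52, the highest at the mESC-only interval chr1:106574505-106574555.

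**Figure D3:**
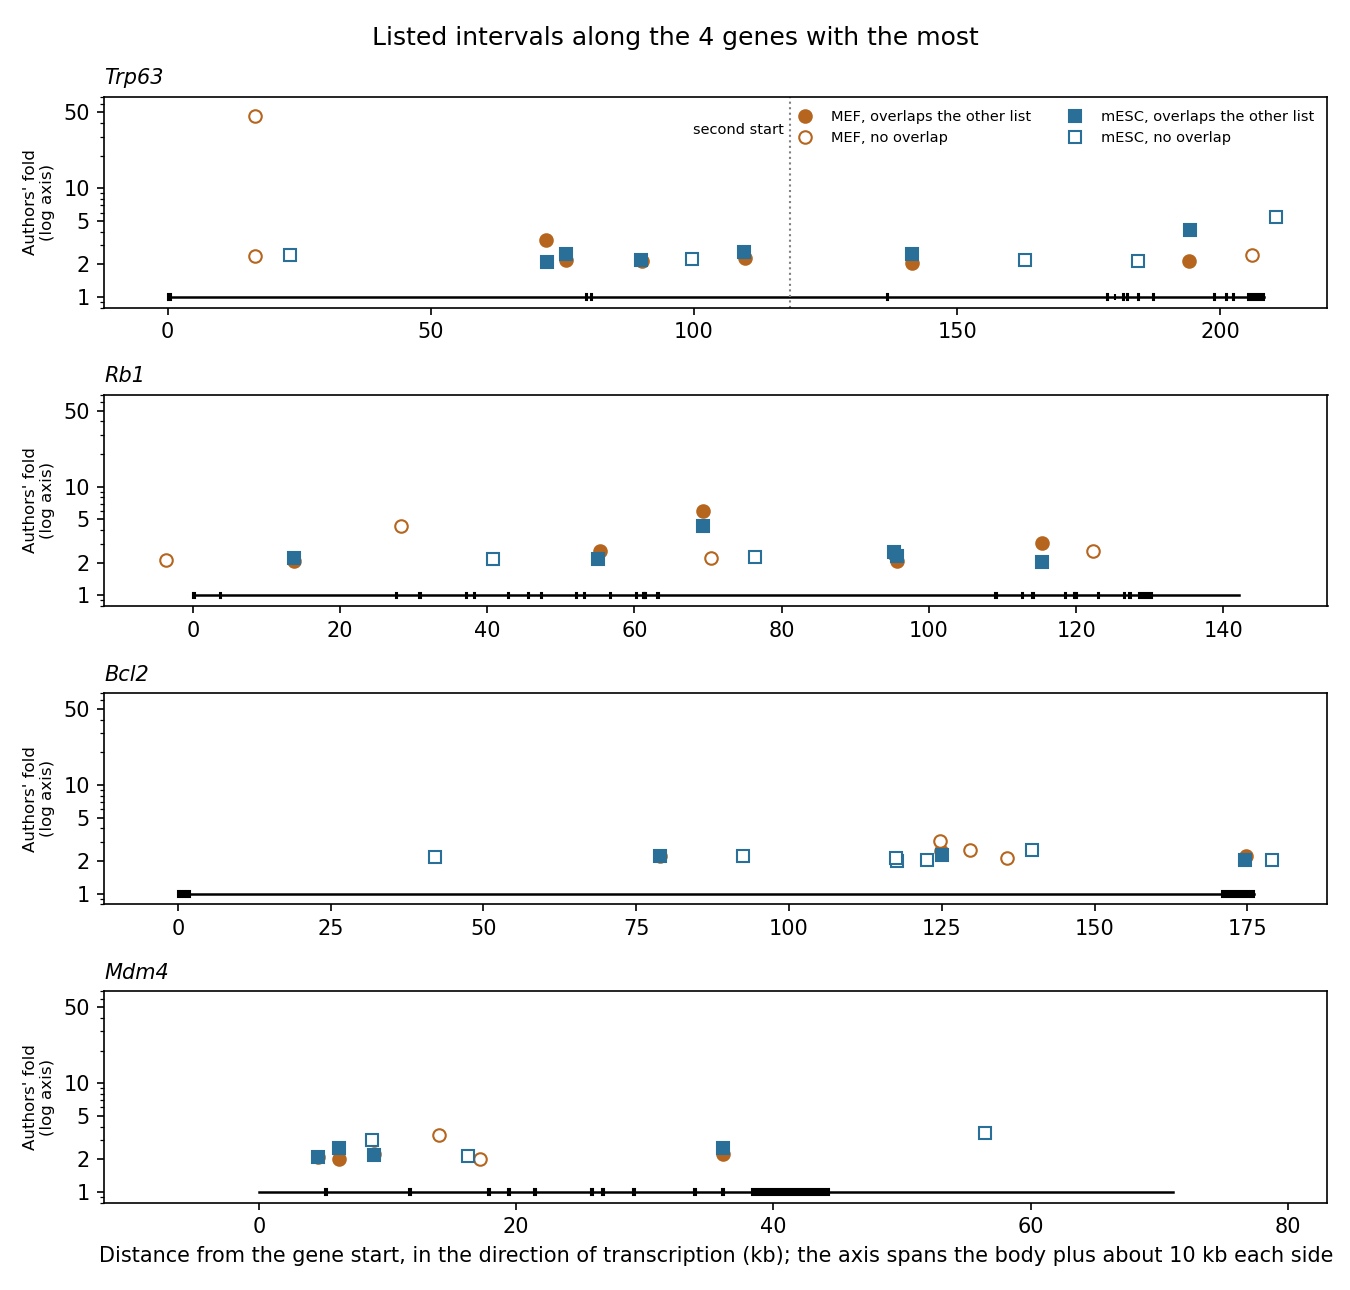
Position of each listed interval along Trp63, Rb1, Bcl2 and Mdm4 (horizontal axis, kb from the start of the gene body in the direction of transcription) against the authors' fold (vertical axis, ratio, log scale), with circles for MEFs and squares for mESCs, filled where the interval overlaps the other list; the black line is the gene body and blocks are exons of the reference transcript. The MEF interval of fold 46.3 stands alone in Trp63 intron 1, and no interval lies at the dotted second start of Trp63.

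By annotation, 31 of the 39 MEF and 33 of the 41 mESC members were centred in introns, 2 and 1 in exons, 3 and 1 upstream, and 2 and 4 downstream. The remaining 1 and 2 lay in the Mdm4 body beyond its reference transcript. Lengths were those of the lists, with a median of 200 bp in both the members and each whole list. Mean GC content was 40.3% in MEF and 40.1% in mESC members, against 40.1% and 40.3% in the lists. On average 36.3% of a MEF member and 33.7% of an mESC member was soft-masked repeat, against 38.5% and 40.9%. In length and GC content members lay near their lists. The median masked share was 28% against 29.7% for the list in MEFs and 23.1% against 33% in mESCs.

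The share of member intervals that overlapped the other list was set beside that of each whole list. An mESC interval overlapped 22 of 39 MEF members (56.4%, 95% exact binomial interval 39.6 to 72.2), against 47.3% of the MEF list. A MEF interval overlapped 22 of 41 mESC members (53.7%, 37.4 to 69.3), against 36.6% of the mESC list. Where the overlap had to cover at least 50% of both intervals, the shares were lower. They were then 46.2% of MEF members (list 37.8%) and 43.9% of mESC members (list 29.4%). Trp63 and Rb1 supplied 6 pairs each, Mdm4 4, Bcl2 3, and Trp53, Cdkn1a and Cdkn2a 1 each. Neighbouring intervals of 1 gene are not independent, and no test was made of these shares. The shares by interval length are given without a test. Among intervals of 100 bp or less, 5 of 13 MEF members (38.5%, list 32.4%) and 3 of 14 mESC members (21.4%, list 21.3%) had a counterpart. Among those over 100 and up to 250 bp, 9 of 12 MEF (75%, list 47.7%) and 5 of 12 mESC members (41.7%, list 35.6%) had one. Among those over 250 and up to 400 bp, 7 of 13 MEF (53.8%, list 60.1%) and 11 of 12 mESC members (91.7%, list 49.8%) had one.

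The 22 pairs lay near all pairs of the lists in how far they overlapped. In 18 (81.8%) the overlap covered at least 50% of both intervals, against 79.0% of all 42911 pairs of the lists. Identical coordinates were listed for 3 of the 22 and for 3730 of all pairs. The mESC fold was the higher in 13 of 22, beside 54.9% of all pairs. The folds come from lists whose scaling is not known to be the same, so this is no measured change.

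**Figure D4:**
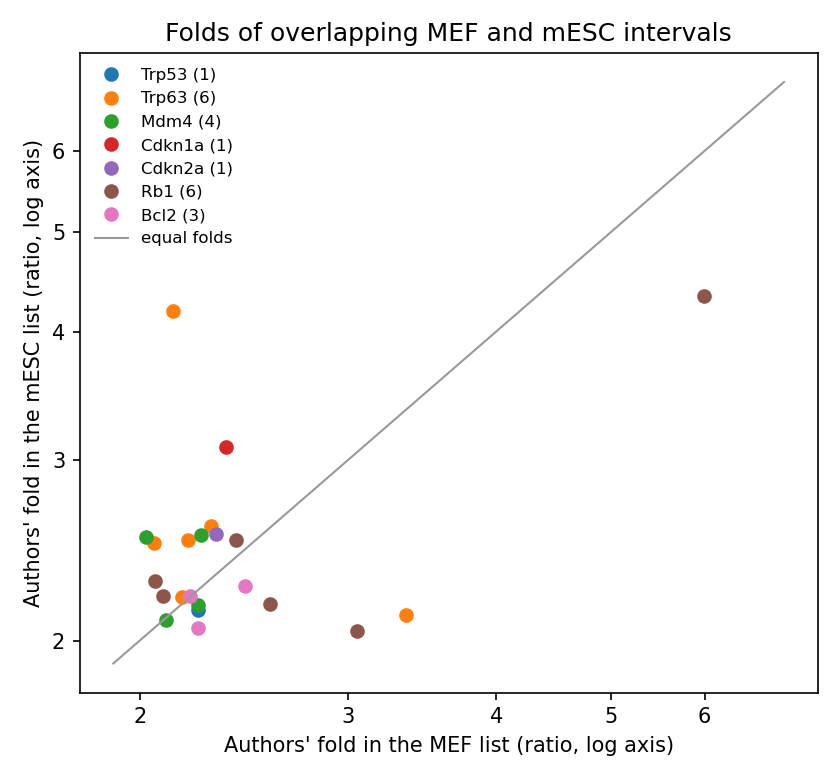
The authors' fold in the MEF list (horizontal axis, ratio, log scale) against that in the mESC list (vertical axis, ratio, log scale) for the 22 overlapping pairs, coloured by gene with the number of pairs in the key; the line marks equal folds. Most pairs lie between 2 and 3 on both axes, and the Rb1 intron 17 pair at 5.99 and 4.34 stands apart.

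Fold medians of the members were 2.32 against 2.36 for the list in MEFs and 2.25 against 2.42 in mESCs. The list's median fold was reached by 19 of 39 MEF members (48.7%) and 17 of 41 mESC members (41.5%). A fold above 4 was listed for 3 of 39 MEF members (7.69%, list 5.92%) and 4 of 41 mESC members (9.76%, list 7.99%). Shared MEF members had a median fold of 2.24 and the others 2.46, while in the whole MEF list shared intervals had the higher median, 2.46 against 2.29. For mESC members the medians were 2.27 and 2.20, and for the mESC list 2.53 and 2.36. Many intervals cannot be ranked against one another by fold, since the lists repeat exact values. The MEF list has 3077 distinct folds and the mESC list 3594, and 99.0% and 99.2% of intervals have the exact fold of another. Of the members, 38 of 39 and 41 of 41 were tied in this way. The MEF fold of 2.24 at Trp53, Mdm4 and Bcl2 is a single value listed for 371 intervals, and the mESC fold of 4.19 at Trp63 and Trp73 is one listed for 155. The one untied member was the Trp63 interval of fold 46.3.

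Binding motifs of this pathway were counted in the members and in the whole lists. The search covered both strands of a 300 bp window around each interval's centre, so a match may lie beside a short interval. The p53 decamer, the unit that p53 family proteins bind in adjacent copies, was in 2 of 39 MEF windows (5.13%, list 8.53%) and 4 of 41 mESC windows (9.76%, list 8.11%). A full p53 site, 2 decamers with 0 to 13 bases between them, was in no member window (list 0.06% in MEFs and 0.05% in mESCs). No member window held an E2F motif (TTTCCCGC, TTTCGCGC, TTTGCCGC or TTTGGCGC; list 0.42% and 0.51%) or a GC box (GGGCGG; 2.57% and 2.85%). The E-box CACGTG was in 1 window of each list, at the Rb1 intron 20 pair (list 2.83% and 2.50%).

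Motifs of other factors were found at shares on either side of the lists'. A loose AP-1 pattern, TGANTCA with any base at N, was in 3 MEF windows (7.69%, list 9.24%) and 7 mESC windows (17.1%, list 8.17%). In the sequences printed above it reads TGAATCA at Trp63 and TGAGTCA at Bcl2, so not every match is the same site. These were at the Trp63 pair of intron 1 and the Bcl2 pair printed above, at a further MEF and 3 further mESC intervals of Bcl2, at the mESC interval of Cdkn2a and at the long mESC interval of Rb1. The TEAD motif GGAATG was in 6 (15.4%, list 16.2%) and 4 windows (9.76%, list 16.5%). The cell cycle homology element TTTGAA, an element of cell cycle gene promoters, was in 12 (30.8%, list 30.4%) and 17 windows (41.5%, list 31.1%). Overlapping pairs share most of their sequence, so these counts hold fewer separate sites than windows. Windows of neighbouring intervals in 1 list can overlap too. Those of the Bcl2 mESC intervals chr1:106596537-106596587 and chr1:106596637-106596880 do, and both were counted for TGANTCA.

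Of the 6 p53 decamers, 3 lay inside a listed interval, in Mdm2, Rb1 and Bcl2, and 3 were wholly repeat-masked. The 3 inside an interval are printed with the one near a Trp63 interval, which resembles that of Mdm2. The decamer is in capitals with 10 bases of the plus strand on either side.
Mdm2, MEF window, decamer at chr10:117691903-117691912: ctggtctacaAAGCAAGTTCcaggacagct
Trp63, mESC window, decamer at chr16:25783315-25783324: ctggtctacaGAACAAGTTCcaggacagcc
Rb1, mESC window, decamer at chr14:73249484-73249493: gaatcttcttGAACTAGTCCcacatttaga
Bcl2, mESC window, decamer at chr1:106596861-106596870: gtgtgatttaAGACTTGTTTttattttgac
The Mdm2 and Trp63 stretches have the same base at 27 of 30 positions, and both decamers lie in soft-masked repeat. The Rb1 decamer is the one of these 4 outside masked sequence.

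The pathway's other genes were described from lists. Of 15 upstream regulators of p53, all had at least 1 interval, with 74 MEF and 113 mESC intervals in all. That is 54.4 and 83.1 per Mb, with median ratios to the expected count of 1.61 and 1.62. The DNA damage kinase genes Atm (10 and 14) and Atr (8 and 15) held the most. Of 22 p53 target genes, 3 had none, and the list had 40 MEF and 39 mESC intervals (40.5 and 39.5 per Mb, median ratios 0.85 and 0.77). Apaf1, which encodes the scaffold of the apoptosome, led with 10 and 5, followed by Ei24 with 6 and 6. All autosomal protein-coding genes had 38.2 MEF and 49.9 mESC intervals per Mb, with median ratios of 0.86 and 0.83. Among them 29.7% had no MEF interval and 22.7% no mESC interval, and the share with neither was not counted. Of the genes in these lists and the next 3, none was called in either direction by either test, where the share called over all genes was also 0%. The mESC share test covered few of them, since it needed at least 10 intervals. It was run for 10 of the p53 regulators and 2 of the p53 targets. In the next lists it was run for 1 CDK inhibitor or pocket protein gene, 3 genes of E2F factors, cyclins and CDKs, and 0 of the BCL2 family.

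The remaining lists were of cell cycle and apoptosis genes. The other 8 CDK inhibitor and pocket protein genes had 10 MEF and 20 mESC intervals (33.2 and 66.4 per Mb), with median ratios of 0 and 0.83. Rbl1, the p107 gene, had 8 of these MEF and 9 of these mESC intervals, and Cdkn2c had 1 and 3. The 21 genes of E2F factors, cyclins and CDKs had 56 and 72 (46.3 and 59.5 per Mb), with Cdk6 at 11 and 15 and Tfdp2 at 8 and 17. The 12 other BCL2 family genes had 7 and 20 (15.3 and 43.6 per Mb), with Bcl2l10 at 1 and 4 and Bak1 at 1 and 3. The median ratio of the BCL2 family list was 0 in MEFs and 0.73 in mESCs. Among the named genes, Ei24 in MEFs (4.12 times the expected, negative binomial unadjusted p = 0.0232) and Atr in mESCs (2.60 times, unadjusted p = 0.0457) had the smallest p-values, both with an adjusted p of 1. Over all genes, 1.74% in MEFs and 2% in mESCs lay below an unadjusted 0.05 in this model. The named genes were picked for having the most intervals in their lists, so low p-values among them carry no weight.

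The genes most like Trp63 in silencer density were Fam19a4, Aig1 and Rtn1, nearest over the 2 lists among 274 genes of like length. Fam19a4 had 10 MEF and 12 mESC intervals (40.1 and 48.2 per Mb), Aig1 had 10 and 12 (41.3 and 49.6 per Mb) and Rtn1 had 9 and 10 (41.4 and 46.02 per Mb). Trp63 itself had 39.4 and 48.2 per Mb.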

How the data were processed

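The data were 2 interval lists, 1 from MEF and 1 from mESC reporter libraries. The authors deposited with each interval a fold, a linear ratio, per the file headers. Bowtie2 and SAMtools are named in the submitters' processing notes, without versions. Those notes name hg38, whereas the series design text names mm10; 0 intervals ended past an mm10 chromosome, and mm10 was used. How intervals were called, scaled and combined over libraries is not given in the sources used here. Starts were read as 0-based, which leaves 1 bp of doubt. Per-library values, the CRISPR knockouts and other omics data were not analysed here. The sequence of 1 Mdm4 stretch is not reported here.

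Gene models came from GENCODE M21 and sequence from GRCm38.p6. Territories were gene bodies with 10 kb on each side. Shared meant an overlap of at least 1 bp. The mESC share was tested for genes with at least 10 intervals by a two-sided exact binomial test. Counts were tested with a negative binomial model whose expectation is proportional to territory length and whose dispersion is common to all autosomal genes (0.195 in MEFs, 0.216 in mESCs). Both used Benjamini-Hochberg adjustment over all genes tested, at 0.05. Both were tried on data simulated from the tests' own models with independent intervals. Such a trial cannot check how well those models describe the lists. Genes of like length had territories within 10% of the member's. The work used Python 3.11.15, pandas 2.3.3, scipy 1.17.1 and numpy 2.4.6.

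The members and the gene lists were chosen with earlier results of these data known. Named were all 9 members, the 2 genes of each pathway list with the most intervals, the 3 genes most like the member with the most intervals, and intervals of highest fold, in pairs or within 1 kb of a start. Intervals and genes named beyond this, and the highest-fold sequences, were chosen after their values were seen. Alternatives were other flanks, overlap rules, interval subsets, a Poisson model and a GC term.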

Additional observations from a re-analysis of the deposited data

How the results depend on the processing

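No paired analysis was possible because each cell type has 1 list and no values per library. With only the intervals from each list's median fold upward, which by construction removes about as many as it keeps, member density was 20.5 per Mb in MEFs (all genes 18.4) and 18.4 in mESCs (all genes 23.9). A Poisson model, which gives genes no spread beyond counting, called 22 genes in MEFs (17 with more and 5 with fewer than expected) and 57 in mESCs (42 and 15), none of them a member. With gene bodies alone the mESC count model called 1 gene, Mrpl18, with 7 intervals against 0.25 expected (negative binomial model, adjusted p = 0.00940). The members' density, shared proportion and mESC proportion otherwise moved by less than their 95% counting interval under the other alternatives.

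Single members crossed a ratio of 1, or the share of all genes, in 12 of the 63 recalculations that could move their value (the Poisson model and the lower minimum of intervals could not), each uncalled with an adjusted p of 1; the cause was not tested. With a 25 kb flank the mESC share of Trp63 was 57.1%, and the MEF ratios of observed to expected count were 1.29 for Trp53, 0.92 for Trp63 and 0.79 for Cdkn2a. The mESC ratios with that flank were 0.88 for Bcl2 and 1.34 for Cdkn1a. With GC content in the model the MEF ratios were 1.06 for Trp53 and 0.86 for Trp63, and the mESC ratio of Bcl2 was 0.84. With gene bodies alone the mESC ratios were 0 for Trp53, 1.11 for Rb1 and 2.02 for Cdkn1a. The direction for these members is therefore not settled. Counts of 0 to 11 per gene limit what could be called, and the depth behind each interval is unknown.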
